A study of Arabidopsis thaliana with 4 samples.

Results

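Transcripts of 10 Arabidopsis thaliana genes that license and copy DNA were compared between shoot apices of the ron3 mutant and of its control, the accession Ler. The genes were taken by locus: the helicase subunits MCM2 (AT1G44900), MCM3 (AT5G46280), MCM4 (AT2G16440), MCM5 (AT2G07690), MCM6 (AT5G44635) and MCM7 (AT4G02060), the loading factors CDC6 (AT2G29680) and CDT1A (AT2G31270), and the sliding clamps PCNA1 (AT1G07370) and PCNA2 (AT2G29570). All 10 were on the arrays, with 1 probe each, among 19246 genes tested, and all 10 passed the filter on dim probes.

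Before a cell copies its DNA, the origin recognition complex marks the start sites, and CDC6 and CDT1 load rings of MCM2 to MCM7 there, a step called licensing. In S phase the loaded rings join CDC45 and the GINS proteins to form the active helicase, while PCNA rings, placed by the clamp loader, hold the polymerases on the template. Transcription of many of these genes is driven by E2F and DP factors held in check by the retinoblastoma protein. In a shoot apex such transcripts are typical of dividing cells in the meristem and young leaf primordia, and cells that enter the endocycle, which copies DNA without division, use the same machinery.

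Each of 4 two-colour Agilent arrays, called a to d, held RNA of ron3 and RNA of Ler, both from shoot apices of plants grown in vitro to growth stage 1.02 under conditions labelled LD. Arrays a and c carried ron3 in Cy5 and Ler in Cy3, while b and d carried them the other way round. The labels name neither the ron3 allele nor the number of plants behind an RNA sample. They speak of dye swaps with biological replicates without saying which arrays share an extract. The p-values rest on the spread left between these 4 arrays once a dye effect is fitted, pulled toward that of all genes. Part of that spread may therefore be technical. A log2 ratio is that of ron3 over Ler, so values below 0 mean less in ron3. It was fitted with a dye effect for each probe in limma, and a gene was called at a Benjamini-Hochberg adjusted p below 0.05 over all 19246 genes.

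All 4 arrays lay on the same slide, and between 54.2% and 59.5% of gene probes were well above background in a genotype's channel. SICKLE (SIC, AT4G24500), the gene known from general knowledge as RON3, had a log2 ratio of −2.30 ± 0.08 (SD, n = 4), below 0 on every array. WUS and CLV3, which define the stem cell niche of the shoot meristem, were well above background on 0 arrays, while STM, KNAT1, CUC2 and ANT, expressed in the meristem and in young primordia, were so on all 4 in both genotypes. The probes carry no genome coordinates in the files, so their places within the transcripts are not given.

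All 10 genes fell in ron3, by between 0.20 and 0.70 on the log2 scale, and 0 rose. Their median log2 ratio was −0.44, where that of all genes tested was 0.02. Of all genes tested 32.8% fell and 37.0% rose, so single calls were frequent in this comparison. The genes were chosen with these results known, and the count is a description of them. Each was well above background for both genotypes on all 4 arrays, 0 of their spots were saturated, and 0 carried an outlier flag on the spot itself. In these bulk samples fewer dividing cells and less RNA per cell cannot be told apart.

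**Figure D1:**
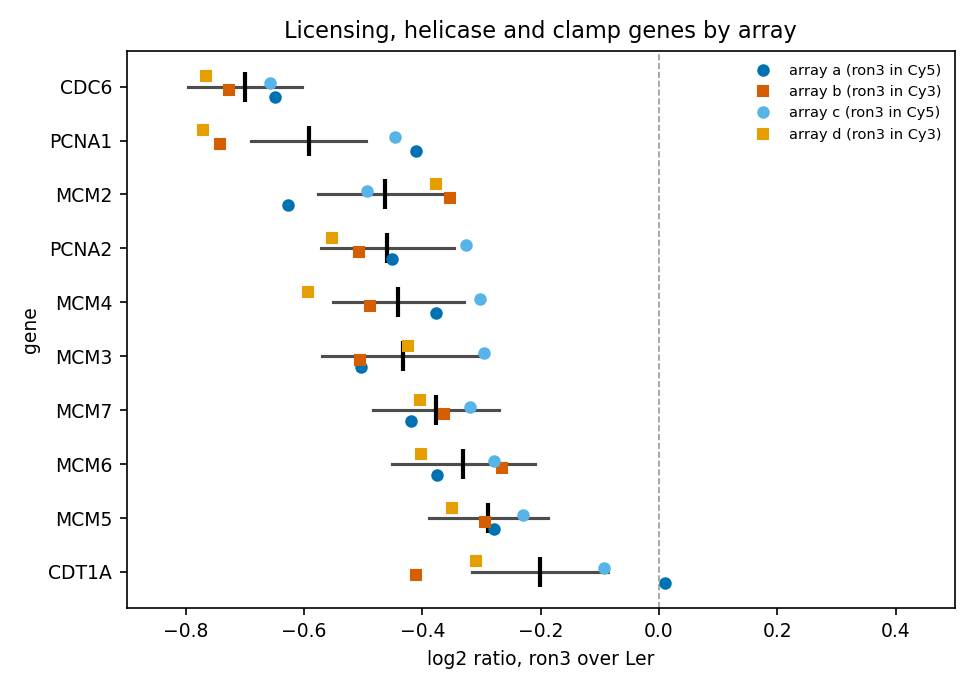
The log2 ratio of ron3 over Ler (horizontal axis) is plotted for each gene (vertical axis) on the 4 arrays, as circles for ron3 in Cy5 and squares for ron3 in Cy3. Black ticks are the fitted means and grey bars their 95% confidence intervals. All means lie between −0.70 for CDC6 and −0.20 for CDT1A, and CDT1A on array a, at 0.01, is the one point above 0.

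Among the loading factors CDC6 fell most. CDC6 is an ATPase that joins the origin recognition complex and recruits the helicase. Its processed signal, an intensity as deposited by the authors, was 648, 628, 715 and 818 in Ler and 313, 331, 342 and 373 in ron3 on arrays a to d. Every ron3 value was below every Ler value, a separation seen in this direction for 26.4% of all genes tested. The log2 ratio was −0.65, −0.73, −0.66 and −0.77 on the 4 arrays, with a mean of −0.70 ± 0.06 (SD, n = 4) and an adjusted p of 0.000348 (limma). By this mean CDC6 was 1.62-fold lower, and 6.17% of all genes tested had a lower ratio. The processed signals listed above differ by more. The log ratio that Agilent's Feature Extraction software computes from them was, on the log2 scale, −1.05, −0.92, −1.07 and −1.13.

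CDT1A, which works with CDC6 to load the helicase and in Arabidopsis is also known for a part in plastid division, had the smallest fall. Its processed signal was 664, 750, 775 and 740 in Ler and 603, 484, 630 and 509 in ron3. The genotypes did not overlap, and they were closest on array a. The log2 ratio was 0.01 on array a and −0.09 on array c, where ron3 was in Cy5. It was −0.41 and −0.31 on arrays b and d, where ron3 was in Cy3. The dye effect had an unadjusted p of 0.0171 (limma) and was not called (adjusted p = 0.405). It was called for 0 of all genes tested. Under the Feature Extraction log ratio array a was below 0, at −0.14. The mean was −0.20 ± 0.19 (SD, n = 4), with an adjusted p of 0.0134 (limma). The call was lost without a dye effect (limma, adjusted p = 0.0632), with median centring in place of loess (0.0656), without array a (0.0530) and without array c (0.0934). CDC6 lay below CDT1A on all 4 arrays, by 0.50 ± 0.15 on average on the log2 scale (SD, n = 4).

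The 6 helicase subunits all fell, with log2 ratios from −0.46 for MCM2 to −0.29 for MCM5 and a median of −0.40. MCM2 to MCM7 form a ring with 1 copy of each, which opens the double helix ahead of the polymerases. All were below 0 on all 4 arrays, as were 35.4% of all genes tested. Their adjusted p lay between 0.00104 and 0.00331 (limma).

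MCM2 had a processed signal of 3682, 3319, 3394 and 3711 in Ler and 2241, 2564, 2273 and 2806 in ron3 on arrays a to d. Its log2 ratio was −0.63, −0.35, −0.49 and −0.38, larger falls on the arrays with ron3 in Cy5, and −0.46 ± 0.13 on average (SD, n = 4). The dye effect was not called for MCM2 (limma, adjusted p = 0.470). MCM4 read 1583, 1725, 1598 and 2081 in Ler and 1133, 1154, 1167 and 1286 in ron3. Its log2 ratio was −0.38, −0.49, −0.30 and −0.59, a mean of −0.44 ± 0.13. Here the larger falls were on arrays b and d, and the dye effect was again not called (limma, adjusted p = 0.458).

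MCM3 read 1532, 1422, 1329 and 1657 in Ler against 969, 924, 938 and 1147 in ron3. Its log2 ratio of −0.43 ± 0.10 (SD, n = 4) had its smallest fall, −0.30, on array c. MCM7, known as PROLIFERA from the mutant that marks dividing cells in Arabidopsis and listed as PRL in the reference, gave the brightest spots of the set, 8575, 8380, 8139 and 10691 in Ler and 6222, 6395, 6220 and 7705 in ron3. At −0.38 ± 0.05 it had the smallest spread of the 10 genes, between −0.42 and −0.32. In both genes the genotypes did not overlap.

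MCM5 fell least of the subunits, with 4518, 4606, 4569 and 5209 in Ler, 3731, 3624, 3735 and 3926 in ron3, and a log2 ratio of −0.29 ± 0.05 (SD, n = 4). MCM6 had the dimmest spots, at 474, 442, 660 and 514 in Ler and 295, 297, 463 and 333 in ron3. It is the one gene of the 10 whose genotypes overlapped in signal: array c was bright in both channels, and its ron3 value exceeded the Ler value of array b. Within each array ron3 was lower, with log2 ratios of −0.38, −0.27, −0.28 and −0.40 and a mean of −0.33 ± 0.07.

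**Figure D2:**
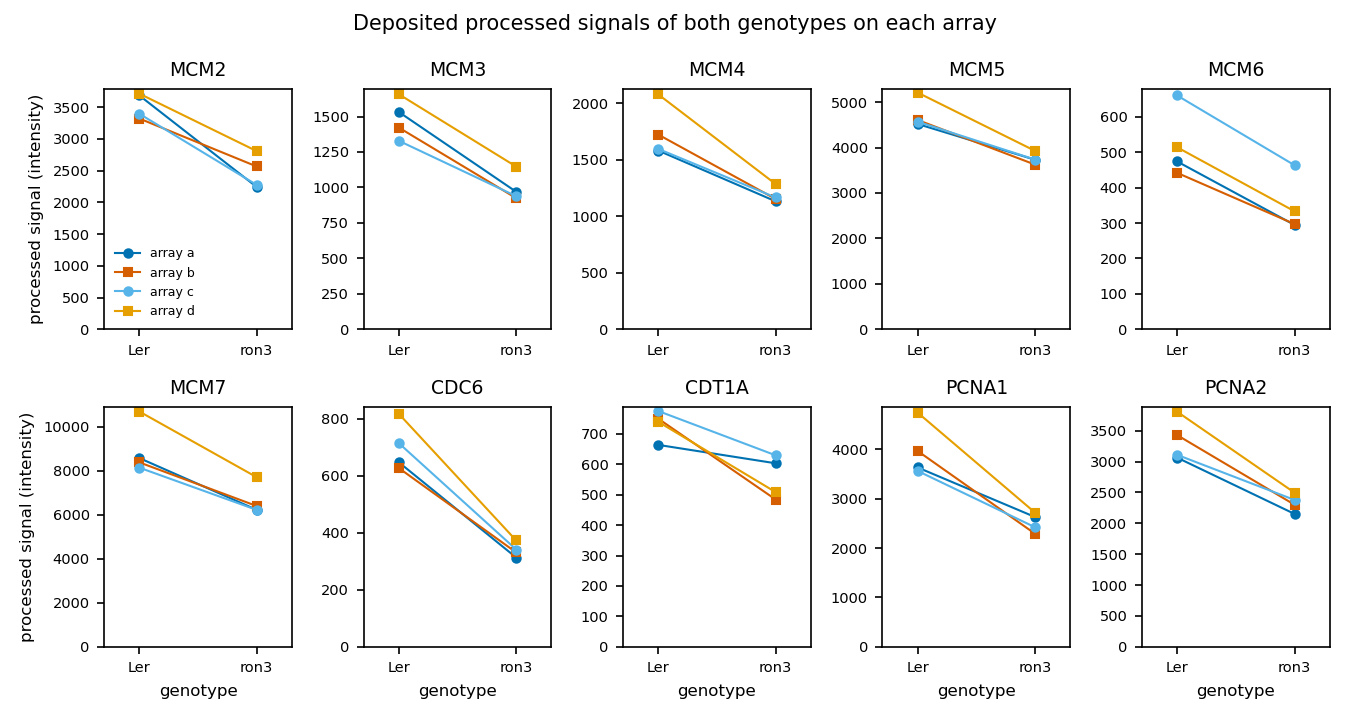
Deposited processed signals (intensity, vertical axes from 0) in Ler and ron3 are joined by a line for each of arrays a to d, with 1 panel per gene. Lines descend from Ler to ron3 on all arrays in all 10 panels. In the MCM6 panel array c stands above the others in both genotypes, at 660 and 463.

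Within arrays, some subunits differed by more than the spread of their difference. Of the 15 pairs of MCM genes 7 kept the same order on all 4 arrays, and MCM5 fell less than MCM7 by 0.09 ± 0.04, than MCM4 by 0.15 ± 0.08 and than MCM3 by 0.14 ± 0.09 on the log2 scale (SD, n = 4). Other pairs, such as MCM2 and MCM4, which differed by 0.02 ± 0.23, changed order between arrays. These differences were not tested. Taken gene by gene, the 95% confidence intervals of all 6 shared the stretch from −0.39 to −0.35, but such intervals leave out that the genes were measured on the same arrays. Over all 10 genes, ordered by mean ratio from CDC6 through PCNA1, MCM2, PCNA2, MCM4, MCM3, MCM7, MCM6 and MCM5 to CDT1A, 1 of the 9 neighbouring pairs, MCM7 and MCM6, kept its order on all 4 arrays. Of all 45 pairs, 25 did. The pair counts were taken from the loess ratios only. Under the Feature Extraction log ratio the order of MCM7 and MCM6 was reversed on every array. In array order, MCM6 then had −0.69, −0.57, −0.51 and −0.63, and MCM7 −0.46, −0.39, −0.39 and −0.47.

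Both clamp genes fell. PCNA forms the ring that slides along DNA behind the helicase and serves as a platform for polymerases, ligase and chromatin factors. For PCNA1 the processed signal was 3632, 3966, 3562 and 4743 in Ler and 2629, 2290, 2421 and 2717 in ron3. Its log2 ratio was −0.41 and −0.45 on arrays a and c and −0.74 and −0.77 on arrays b and d, with a mean of −0.59 ± 0.19 (SD, n = 4; limma, adjusted p = 0.000456). The fall was present in both dye orientations and larger with ron3 in Cy3. The dye effect had an unadjusted p of 0.00851 (limma) and was not called (adjusted p = 0.404), as it was for 0 of all genes tested.

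PCNA2 read 3064, 3429, 3109 and 3808 in Ler and 2153, 2301, 2379 and 2496 in ron3, again without overlap. Its log2 ratio was −0.45, −0.51, −0.33 and −0.55, and its mean −0.46 ± 0.10 (SD, n = 4; limma, adjusted p = 0.00105). The local background of 1 of its 4 spots, on array d, carried an outlier flag. PCNA1 was lower than PCNA2 on 3 of 4 arrays, by 0.13 ± 0.13 on the log2 scale (SD, n = 4), so the order was not the same on every array. Probe sequences were not at hand, so it was not checked whether either probe also bound transcript of the other gene. The separate values are uncertain to that extent.

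The size of the falls differed between processings of the signals, while the direction did not. With the log ratio that Agilent's Feature Extraction software computes, all 10 genes again fell and their median was −0.54. CDC6 moved from −0.70 to −1.04 ± 0.05 (SE), MCM6 from −0.33 to −0.60 ± 0.05 and CDT1A from −0.20 to −0.40 ± 0.05, with adjusted p of 0.00128, 0.00220 and 0.00497 (limma). These were the genes with the lowest signals. The brighter MCM7, PCNA1 and MCM5 moved little, to −0.43, −0.65 and −0.33. That log ratio differs from the other values in background correction, in the offset of 50 added to each signal and in dye normalisation at once, and which of these moved the values was not tested. Leaving out the background correction and the offset while keeping loess gave −0.64 for CDC6, −0.31 for MCM6 and −0.20 for CDT1A. That setting leaves the background in both signals, so it does not show what subtraction without an offset would give. Under the Feature Extraction log ratio MCM6 was the subunit with the largest fall, whereas MCM2, at −0.52, was not. Of all 10 genes MCM5, at −0.33, then fell least, in place of CDT1A.

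**Figure D3:**
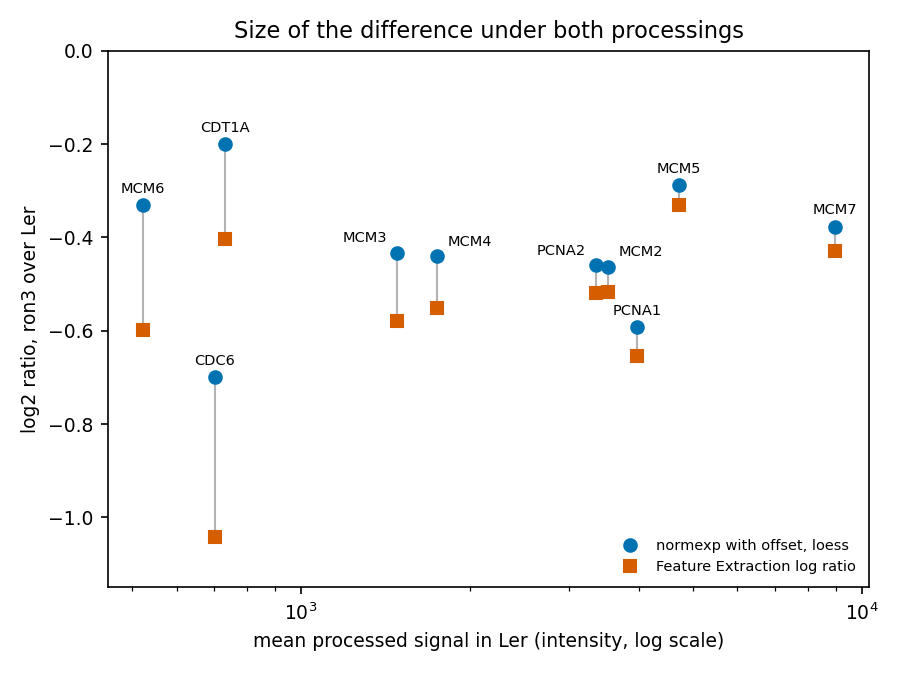
The log2 ratio of ron3 over Ler (vertical axis) is plotted against the mean processed signal of the probe in Ler (horizontal axis, intensity on a log scale) for each gene under both processings. Grey lines join the values of a gene. The gap is widest for MCM6, CDT1A and CDC6, at mean signals of 522, 732 and 702, and narrow for MCM7, at 8946. Probe brightness is not a transcript level that can be set against that of another gene.

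Genes that flank the 10 loci went no common way. Of the 20 nearest measured neighbours, 1 on each side, 5 fell, 5 rose and 10 were not called, where 32.8% of all genes tested fell and 37.0% rose. MCM3, for example, lay between AT5G46270, which rose with a log2 ratio of 0.51, and AT5G46290, which fell with −0.51.

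Other genes of DNA replication were mostly lower too. In 10 lists of 66 further pathway genes, 65 were measured, and 48 of them fell, 3 rose and 14 were not called, with a median log2 ratio of −0.32. POL2B was not well above background on any array. These lists were drawn up by role, with earlier results of the data known.

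Partners in licensing fell in part. Of 7 genes of the origin recognition complex 4 fell and 0 rose, with ORC4 at −0.57 ± 0.17 and ORC2 at −0.38 ± 0.05 (SD, n = 4). ORC5, ORC3 and ORC1A, with log2 ratios of 0.14, −0.12 and −0.09, were not called. All 6 other licensing and MCM-related genes fell. ETG1, an MCM-binding protein, stood at −0.52 ± 0.05, MCM9 at −0.53 ± 0.08, the initiation factor MCM10 at −0.42 ± 0.05 and CDT1B, the second CDT1 gene, at −0.40 ± 0.08. The 4 arrays gave −0.34, −0.50, −0.43 and −0.33 for CDT1B, all below 0, where CDT1A had 3 of 4 below 0. Under the Feature Extraction log ratio CDT1A too was below 0 on all 4, at −0.14, −0.63, −0.30 and −0.54.

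The partners that turn the loaded ring into a working helicase fell as well, 5 of 5 in the CDC45 and GINS list. CDC45 had a log2 ratio of −0.60 ± 0.08, PSF1 −0.39 ± 0.06 and PSF3, listed as TTN10, −0.37 ± 0.16 (SD, n = 4). SLD5, at −0.27, rests on 3 arrays, since its spot on array c was flagged and left out, and its call was lost in 2 of the 11 alternatives that gave it a value. PSF2 fell least, at −0.12.

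At the fork, 8 of 10 measured polymerase and primase genes fell and 0 rose. ICU2, the catalytic subunit of polymerase alpha, had a log2 ratio of −0.57 ± 0.16 and TIL1, that of polymerase epsilon, −0.49 ± 0.08 (SD, n = 4), with DPB2, a further epsilon subunit, at −0.39 ± 0.05. Of 5 clamp loader genes, whose products place PCNA on DNA, 3 fell. EMB1968, also named RFC4, had the largest fall at −0.69 ± 0.11, while RFC1, the large subunit, at 0.02, and AT1G77470, listed as RFC3 with RFC5 as a synonym, at −0.04, were not called. Replication protein A coats single-stranded DNA, and 8 of its 9 genes fell. RPA1D and RPA1B, the large subunits linked to replication in Arabidopsis, had log2 ratios of −0.79 ± 0.06 and −0.70 ± 0.04, whereas RPA1A, linked to meiosis, was at −0.02 and was not called.

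In the remaining lists LIG1, the ligase that seals Okazaki fragments, fell with −0.40 ± 0.12 (SD, n = 4). Of 5 genes of nucleotide supply 3 fell: RNR1, the large subunit of ribonucleotide reductase, at −0.74 ± 0.09, and the thymidine kinases TK1B and TK1A at −0.95 ± 0.18 and −0.29 ± 0.13, the latter a call lost in 1 alternative. The small subunit genes TSO2 and RNR2A, at −0.14 and −0.21, were not called. Of 7 genes for histone chaperones and chromatin at the fork 3 fell and 1 rose. The fork-associated methyltransferase ATXR6 stood at −0.48 ± 0.16, the assembly factor subunit FAS1 at −0.42 ± 0.15 and the chaperone ASF1B at −0.39 ± 0.08. FAS2, a partner of FAS1 in the same complex, rose by 0.13 ± 0.03, a call lost in 8 of the 16 alternatives, with adjusted p up to 0.182 (limma).

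The transcriptional regulators moved apart. Of 9 E2F, DP and retinoblastoma genes 6 fell and 2 rose. The activator E2FA had a log2 ratio of −0.41 ± 0.07 and the atypical E2F genes DEL2 and DEL3 −0.54 ± 0.06 and −0.52 ± 0.09 (SD, n = 4), while E2FC, known as a repressor, was at −0.21 ± 0.06, a call lost in 2 alternatives. The dimerisation partners DPA and DPB rose, with 0.21 ± 0.06 and 0.12 ± 0.04, and RBR1, the retinoblastoma gene, at −0.01, was not called.

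Among 64 pathway genes measured on all 4 arrays, the profiles nearest to the median profile of the 10 genes were those of E2FA, POLA2 and PSF1. Their Euclidean distances over the 4 arrays were 0.0745, 0.0826 and 0.0955 on the log2 scale. POLA2, the second subunit of polymerase alpha, had a log2 ratio of −0.37 ± 0.06 (SD, n = 4). With 4 arrays of 1 comparison, likeness means little more than a fall of similar size.

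**Figure D4:**
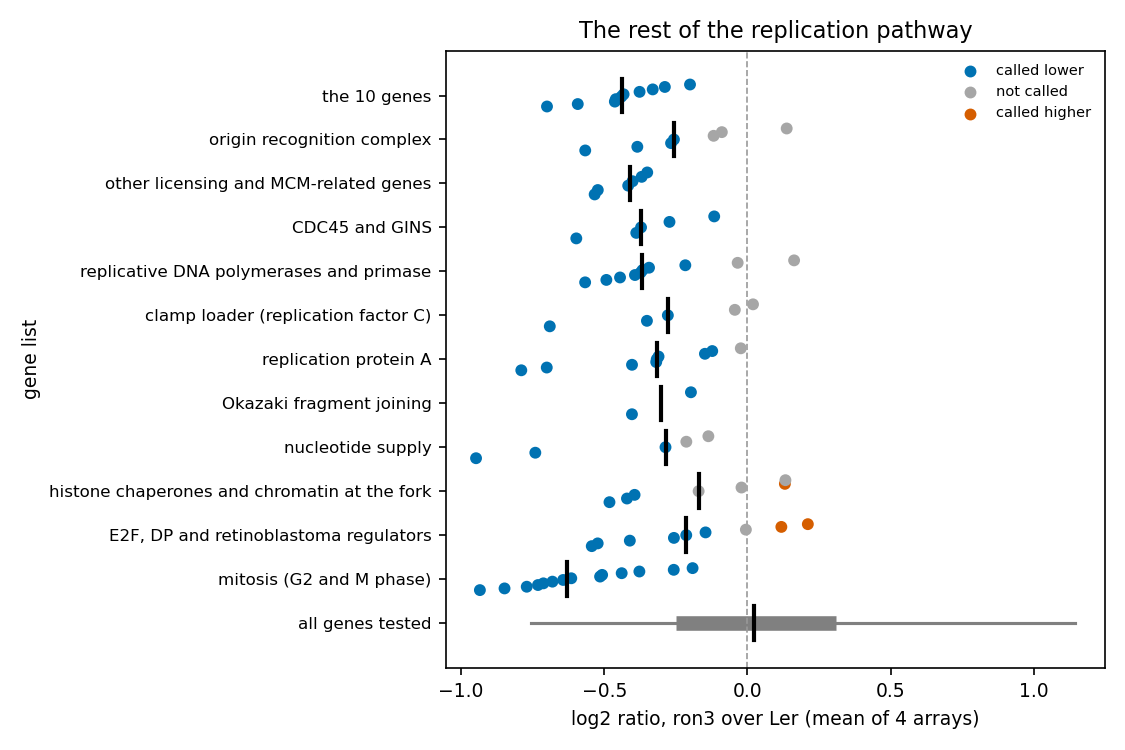
Each point is the mean log2 ratio of ron3 over Ler (horizontal axis) of 1 gene, by gene list (vertical axis), in blue where it fell, orange where it rose and grey where it was not called. Black ticks are list medians, and the bottom bar shows all 19246 genes by their 5th to 95th percentiles (thin) and quartiles (thick). The median of the 10 genes is −0.44, that of the mitosis list −0.63 and that of all genes 0.02.

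Markers of cell types changed as well, some lists mostly down and others up or both ways, and their part in these falls was not tested. All 14 genes of the mitosis list fell, with a median of −0.63, led by CDC20.1, which activates the ubiquitin ligase of anaphase, at −0.93 ± 0.10 and the cytokinesis kinesin HIK at −0.85 ± 0.11 (SD, n = 4). Their summed processed signal ranged from 62080 to 76263 in Ler and from 36622 to 40393 in ron3, where that of the 10 replication genes ranged from 27850 to 33971 and from 20289 to 23299. The difference between the lists was not tested.

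Meristem and young leaf markers went both ways. Of 9 measured 5 fell and 3 rose, with a summed signal of 23814 to 29453 in Ler and 19216 to 23425 in ron3. STM, which maintains the meristem, rose by 0.40 ± 0.12, while ANT, a promoter of cell proliferation in primordia, fell with −0.83 ± 0.12 and the primordium gene FIL with −0.43 ± 0.11 (SD, n = 4). Of 8 mesophyll markers 7 fell, with a median of −0.34 and a summed signal of 696355 to 890124 in Ler and 576986 to 656051 in ron3. Among the 7, LHCB1.1 and LHCB2.1 changed sign between arrays. Arrays a to d gave 0.19, −0.44, 0.20 and −0.66 for LHCB1.1 and −0.59, 0.14, −0.47 and −0.01 for LHCB2.1. Of 5 vascular markers 3 fell, with IRX3 at −0.57 ± 0.19 and summed signals of 38871 to 49320 in Ler and 33827 to 42457 in ron3.

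Of 10 measured root markers 8 rose and 1 fell, where 37.0% of all genes tested rose and 32.8% fell. Their summed signal was 8268 to 9603 in Ler and 9292 to 11034 in ron3, and PLT1 and PLT2 were well above background on 0 arrays. RSL4, RHD6, EXPA7 and EXPA18, all among those that rose, were well above background on 0 arrays in Ler. They passed the filter through ron3 alone, which favours genes with a rise. The mean of the root list was 0.58, 0.57 and 0.55 on arrays a to c and 0.16 on array d. The mean of the 10 replication genes was −0.41, −0.47, −0.34 and −0.50 on arrays a to d, so array d did not stand apart there, and all 10 were called without it. Of 3 senescence markers measured 1 rose and 1 fell, and their summed signal was 3550 to 4585 in Ler and 7107 to 14380 in ron3. SAG13, a senescence-associated gene, rose by 5.14 ± 0.51, ORE1 fell with −0.59 ± 0.27 (SD, n = 4), and NYE1, at 0.12, was not called. The larger sum in ron3 therefore does not stand for the list as a whole. SAG12, a marker of late senescence, did not pass the filter.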

How the data were processed

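Spots of 4 two-colour arrays were quantified by the authors with Agilent Feature Extraction 10.1.1.1, per the file headers. Spot and local background intensity were deposited as medians, which were used here, and mean signals were not used. The processed intensity, deposited too, had background subtracted and dyes normalised in Feature Extraction. Log ratios were deposited on the log10 scale, red (Cy5) over green (Cy3). Deposited flags (other) are 0 or 1 per spot. The authors' deposited value table holds log2 ratios of the processed signals.

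Here signals were corrected with normexp (offset 50) and normalised by loess within arrays in limma 3.58.1 (R 4.3.3), controls at weight 0. Flagged spots were left out. A probe was kept if 1 or both genotypes stood well above background on 2 or more of 4 arrays and if 3 or more spots were unflagged, and the brightest probe stood for a locus. The model had a dye effect per probe, leaving 2 residual degrees of freedom with 2.45 prior degrees of freedom. Limma's moderated test was two-sided with Benjamini-Hochberg adjustment. It was tried on simulated data without normalisation, in which a far smaller share of genes changed than was called here. That trial does not cover the present setting. The dye effect was called for 0 of 19246 genes (limma), with 2208 at an unadjusted p under 0.05. Spreads given are SDs over arrays and still hold the dye effect. The number of arrays limits the precision.

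The genes and lists were chosen with earlier results of these data known. Named were the 10 genes, RON3, up to 4 called genes per list with the smallest p and 1 sign on all arrays measured, and the 3 nearest profiles; list members named beyond that were chosen after their values were seen. Symbols and synonyms come from the reference table of assembly TAIR10.1, E2FA being listed there as E2F3, E2FC as ATE2F2 and FIL as AFO. Of the list entries 1 vascular marker was dropped because its locus had been written down wrongly. Alternatives covered the dye effect, background, normalisation, filter, probe choice, moderation, pairs of arrays averaged and each array left out.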

Additional observations from a re-analysis of the deposited data

Results flagged for a closer look

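In 6 of 90 values examined, 1 array lay far from the other 3 by Dixon's criterion, which chance alone meets in about 1 of 20. None of the 10 replication genes was among them. ORC6 stood at −0.14 on array c against −0.31 on the others, and ASF1B at −0.27 on array b against −0.43 to −0.45. CCS52A2 stood at 0.52 on array c against 0.29 to 0.31. Array d gave 3 of the 6: IRT1 at 0.67 against 1.61 to 1.73, the mean of the root list at 0.16 against 0.55 to 0.58, and the mean of the clamp loader list at −0.20 against −0.29. In Ler, the IRT1 probe stood well above background on 3 arrays.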

How the results depend on the processing

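Under 16 alternatives the count of the 10 genes that fell was 9 or 10, and 0 rose under any. The gene lost was CDT1A each time, in the 4 settings given with its values, and the other 9 genes kept their call in all 16. The 16 are not independent checks. With 1 probe per gene, averaging probes could not change these ratios, and neither could the filter settings. The deposited value table holds nearly the same ratios as Feature Extraction. The median log2 ratio of the 10 genes moved beyond the spread between arrays with the log ratio of Feature Extraction and with the authors' deposited value table, to −0.54 in both, from −0.44. Over all genes tested, the called genes numbered 13435, with a range of 10030 to 14255 over the alternatives. Rises made up 53.0% of them, and 44.8% with the log ratio of Feature Extraction. Loess with Aquantile changes only mean intensities, so it left every ratio as it was. Of the other named genes, 24 of 985 values lost their call and 0 changed sign. Each ratio is itself a paired comparison of the genotypes within an array. Averaging arrays a with b and c with d, or a with d and b with c, left all 10 genes called.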

Other observations

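Genes of the endocycle, in which cells copy DNA without dividing, went both ways. Of 4 measured 2 rose, 1 fell and 1 was not called (limma), with a median log2 ratio of 0.21, where 37.0% of all genes tested rose and 32.8% fell. LGO, a cyclin-dependent kinase inhibitor that promotes the endocycle, rose by 0.59 ± 0.08 (SD, n = 4), with 0.68, 0.52, 0.63 and 0.52 on arrays a to d. Of the activators of the anaphase-promoting complex that promote it, CCS52A2 rose by 0.36 ± 0.11, and CCS52A1 stood at −0.15 ± 0.08 with a call that was lost in 5 of 16 alternatives. SIM, at 0.06, was not called.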
